A study of Rattus norvegicus with 127 samples.

Results

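The 3 genes of interleukin-10 and STAT signalling, Il10, Il10ra and Stat6, were followed through all 18 groups of a study of the rat pelvic floor. They were chosen by name as the ligand, a receptor chain and a transcription factor, and they make up 3 of the 134 genes on a custom nCounter panel, an assay that counts RNA molecules captured by barcoded probes without amplification. Il10 encodes interleukin-10, a cytokine that restrains inflammatory gene expression, above all in macrophages. Il10ra encodes the ligand-binding chain of its receptor, which is found mostly on blood-derived cells and signals chiefly through STAT3. Stat6 encodes the transcription factor through which interleukin-4 and interleukin-13 act, and it is known for the alternative activation of macrophages. In injured skeletal muscle, macrophages pass from an inflammatory to a reparative state while fibres regenerate, and interleukin-10 is a known signal in that passage.

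All samples were pubocaudalis muscle, a muscle of the pelvic floor, of Sprague Dawley rats. Injury was a simulated birth injury (SBI), and some injured rats also received saline or SKM, a gel prepared from decellularised skeletal muscle matrix. The injury time course held SBI alone at day 1 (3 samples), day 3 (8), day 7 (6), day 10 (3), day 31 (6), day 35 (6) and day 84 (6), with uninjured muscle as its baseline (3). Injection immediately at injury was sampled with SKM at day 3 (9) and day 7 (8), and with saline at day 3 (9) and day 7 (9). Delayed injection was sampled with SKM at day 3 (9), day 7 (9) and week 8 (6), and with saline at day 3 (9), day 7 (10) and week 8 (5). The days of the injected groups count from injection, and the labels do not give the length of the delay. These numbers count samples after 3 pairs with identical recovered counts in all 134 genes had each been averaged into 1 sample. Within a pair the deposited values differed by 1 scaling factor, from factors of 0.768 and 1.095 in SBI day 3 and of 2.42 and 2.66, and 0.655 and 0.670, in SBI day 7. Whether each sample was a different rat is not in the labels, so every p-value is set against a spread between samples that may be technical. No sex, age, cartridge or run is given for any sample. No marker of the 6 cell types listed, the 8 fibre markers among them, stood at 0 in all samples of a group. Since this held for every cell type, it is no check of the labelled tissue.

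Total recovered counts ran from 366294 to 1824478 per sample, with a median of 1344374. Il10 had 7 to 474 counts per sample (median 73.5), Il10ra 0 to 923 (median 79) and Stat6 96 to 2808 (median 519), so the first 2 carry the larger counting error. Il10ra had 0 counts in 2 samples, 1 of SBI day 35 and 1 of delayed SKM week 8. A count of 0 allows up to 3 counts, or a level of 3.55 and 2.30 on the scale used here, and covers counting error only. Levels are log2(value + 1) of the deposited, normalized values. They compare 1 probe between samples and never one probe with another. Because the basis of that normalization is not given in the sources used here, every comparison was repeated with each sample centred on the median of its 134 genes. The panel median averaged 10.23 in uninjured muscle and 9.98 to 10.44 from day 1 to day 35 of SBI. It was 8.46 at SBI day 84, 8.45 in delayed SKM week 8 and 8.51 in delayed saline week 8, which is 1.72 to 1.78 below uninjured muscle. A gene was called where the Benjamini-Hochberg adjusted p of limma, over all 134 genes of a comparison, was under 0.05. In bulk muscle, fewer cells of a type and less RNA per cell cannot be told apart.

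In the RefSeq annotation of GRCr8, Il10 lies at chr13:45024921-45029586, Il10ra at chr8:54459754-54474786 and Stat6 at chr7:65365505-65382825, each a protein-coding gene. The promoter windows of Il10ra and Stat6 were searched for the palindromic core of a STAT site, TTCNNNGAA. The search also took the same core with 4 bases between TTC and GAA, the spacing that STAT6 is known to prefer. The sequences used here held no window for Il10. The windows run 250 bases before to 50 bases after the gene's start and read 5′ to 3′ on the gene's own strand, which is minus for Il10ra (chr8:54474737-54475036) and plus for Stat6 (chr7:65365255-65365554).
Il10ra promoter: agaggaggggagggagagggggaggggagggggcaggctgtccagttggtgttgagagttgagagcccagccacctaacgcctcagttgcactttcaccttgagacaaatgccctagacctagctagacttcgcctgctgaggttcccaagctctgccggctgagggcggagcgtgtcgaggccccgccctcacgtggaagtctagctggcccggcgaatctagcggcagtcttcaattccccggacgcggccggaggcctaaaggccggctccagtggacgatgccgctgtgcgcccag
Stat6 promoter: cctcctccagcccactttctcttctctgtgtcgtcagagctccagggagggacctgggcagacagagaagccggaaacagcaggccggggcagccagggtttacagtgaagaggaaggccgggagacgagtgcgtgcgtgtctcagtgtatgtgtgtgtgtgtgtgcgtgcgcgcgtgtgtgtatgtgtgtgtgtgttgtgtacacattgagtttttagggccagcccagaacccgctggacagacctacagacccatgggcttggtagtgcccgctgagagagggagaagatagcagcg
A motif match would stand in capitals, and neither window holds one. Being palindromes, both motifs read the same on either strand. Of 33469 promoter windows of this length in the table, 8.87% held TTCNNNGAA and 7.28% held the wider spacing, so their absence here says only that these letters are not in these windows.

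In the fit over all groups Il10 was raised at day 1, level with uninjured muscle at day 3, and above its day 3 level again at day 7. None of the 3 calls behind this course held in a fit of the compared groups only (adjusted p of 0.091 for day 1 against uninjured muscle, 0.072 for day 3 against day 1 and 0.085 for day 7 against day 3). At SBI day 1 the 3 samples had Il10 levels of 6.67, 7.52 and 8.07, against 5.95, 6.56 and 6.69 in uninjured muscle. The lowest day 1 sample lay just under the highest uninjured sample, so the ranges overlapped narrowly. The difference of 1.02 ± 0.45 (SE) passed the test (adjusted p = 0.042), as it did after centring (1.27 ± 0.43, adjusted p = 0.0081). On day 1, 21.6% of the panel was called higher on the deposited scale and 26.9% after centring. The deposited call was lost when uninjured replicate 1 or 2 or SBI day 1 replicate 1 or 3 was left out, with differences of 0.70 to 1.10 and adjusted p of 0.054 to 0.235.

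At SBI day 3 Il10 ran from 5.60 to 7.23 (median 6.36, n = 8), with a difference from uninjured muscle of -0.06 ± 0.38 (adjusted p = 0.90). Against SBI day 1 the day 3 level of Il10 was lower by a log2 difference of -1.08 ± 0.38 (adjusted p = 0.015), and by -1.43 ± 0.36 after centring (adjusted p = 0.00063). It was 1 of the 4.48% of panel genes called lower between these days, or 9.7% after centring. The deposited call was lost without SBI day 1 replicate 1 (adjusted p = 0.067) or replicate 3 (adjusted p = 0.196), at -1.03 and -0.76. Ccl2, a chemokine that draws monocytes, also fell between these days (-2.36 ± 0.78, adjusted p = 0.011), while Il12b, a subunit of interleukins 12 and 23 on the same list of genes that interleukin-10 restrains, rose as deposited (2.52 ± 1.04, adjusted p = 0.049) and was not called after centring (adjusted p = 0.089). The macrophage gene Adgre1 rose (2.25 ± 0.78, adjusted p = 0.015), as did the alarmin Il33 (1.25 ± 0.23) and the endothelial gene Tie1 (1.17 ± 0.21). Ccr2, the other macrophage marker on the panel, did not rise. It stood 2.88 ± 0.58 above uninjured muscle at day 1 and 2.03 ± 0.48 above it at day 3. All 4 fibroblast markers rose, led by the collagens Col1a1 (5.20 ± 0.52) and Col3a1 (4.09 ± 0.41), and the fibre troponin Tnnt3 fell (-1.31 ± 0.52, adjusted p = 0.039). Il10ra and Stat6 were not called between days 1 and 3, with differences of -0.14 ± 0.75 and 0.06 ± 0.31.

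At SBI day 7 Il10 ran from 6.60 to 7.42 (median 7.22, n = 6), which put the median sample near the top of the day 3 range. Against SBI day 3 the gene rose by 0.76 ± 0.30 (adjusted p = 0.041), and by 0.88 ± 0.28 after centring (adjusted p = 0.010). Between these days 19.4% of the panel was called higher, or 31.3% after centring. Leaving out any of 8 samples (SBI day 3 replicates 1, 2, 4 and 8, SBI day 7 replicates 3 to 6) ended the deposited call, with differences of 0.65 to 0.74 and adjusted p of 0.056 to 0.098. Foxp3, the master regulator of regulatory T cells, rose over the same days (2.09 ± 0.43, adjusted p = 0.00013). Interleukin-6 (Il6) fell by 2.33 on the log2 scale (SE 0.64, adjusted p = 0.0030), and Ccl2 fell by 1.80 (SE 0.63, adjusted p = 0.018). The fibre myosin gene Myh1 rose by 2.27 ± 0.47 (adjusted p = 0.00013). Against uninjured muscle the day 7 difference of Il10 was 0.69 ± 0.39 and was not called (adjusted p = 0.12).

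From day 10 to day 35 Il10 was not called on either scale. The 3 samples of SBI day 10 had 6.10, 6.16 and 6.79, inside the span of uninjured muscle but for the highest. At SBI day 31 the range was 6.43 to 7.29 (median 7.17) and at SBI day 35 it was 5.46 to 7.16 (median 7.01). The differences from uninjured muscle were -0.05 ± 0.45, 0.64 ± 0.39 and 0.32 ± 0.39 for days 10, 31 and 35. Between neighbouring days, 5.22% of the panel was called between days 7 and 10, 5.97% between days 10 and 31 and 0% between days 31 and 35, with none of the 3 genes among them.

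Il10ra had the largest early difference of the 3 genes, and as deposited its mean was lower at each later sampled day. At SBI day 1 the samples had Il10ra levels of 7.37, 8.62 and 9.02, against 5.45, 5.46 and 5.72 in uninjured muscle. Every day 1 sample lay above every uninjured sample, and the difference was 2.80 ± 0.90 (adjusted p = 0.0049). At SBI day 3 the range was 6.70 to 9.40 (median 8.25, n = 8), again with no overlap, and the difference was 2.66 ± 0.75 (adjusted p = 0.0010). Here 38.8% of the panel was called higher, on the deposited scale as after centring. After centring the differences of Il10ra at days 1 and 3 were 3.04 ± 0.86 and 2.56 ± 0.71, both called.

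At SBI day 7 Il10ra ran from 5.95 to 8.34 (median 7.59, n = 6), still above the uninjured range. The difference from uninjured muscle of 1.74 ± 0.78 lay at the threshold (adjusted p = 0.0495), and after centring it was 1.76 ± 0.74 (adjusted p = 0.036). On day 7, 30.6% of the panel was called higher, or 32.1% after centring. Leaving out any of 7 samples (uninjured replicates 1, 2 and 3, SBI day 7 replicates 1, 2, 4 and 6) ended the deposited call, with differences of 1.53 to 1.83 and adjusted p of 0.062 to 0.121. With the replicate number as a block, a term the labels give no basis for, the difference was 1.70 (adjusted p = 0.059). From day 1 to day 35 no step of Il10ra between neighbouring days was called.

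At SBI day 10 the Il10ra levels of 6.20, 6.59 and 7.83 did not overlap those of uninjured muscle, but the difference of 1.33 ± 0.90 was not called (adjusted p = 0.29), where 8.96% of the panel was. At SBI day 31 Il10ra ran from 5.02 to 8.59 (median 5.62), and 1 sample stood far above the other 5. At SBI day 35 it ran from a count of 0, written as 0.14, to 6.75 (median 5.30). The differences from uninjured muscle were 0.47 ± 0.78 at day 31 and -0.96 ± 0.78 at day 35, where 0% of the panel was called on both days. Without the sample at 0 the day 35 difference was -0.06.

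Stat6 was called on the same days as Il10ra, with smaller differences and smaller standard errors. At SBI day 1 its levels were 9.63, 10.44 and 10.63, against 8.69, 8.83 and 9.28 in uninjured muscle. The groups did not overlap, and the difference was 1.30 ± 0.37 (adjusted p = 0.0016). At SBI day 3 Stat6 ran from 9.53 to 11.24 (median 10.23, n = 8), also clear of uninjured muscle, with a difference of 1.36 ± 0.31 (adjusted p = 6.4e-05). At SBI day 7 the range of 9.15 to 10.37 (median 9.69, n = 6) overlapped that of uninjured muscle, and the difference was 0.82 ± 0.32 (adjusted p = 0.026). That call was lost without uninjured replicate 1 or 2 or SBI day 7 replicate 1 or 2, with differences of 0.70 to 0.77 and adjusted p of 0.061 to 0.121. After centring the differences at days 1, 3 and 7 were 1.55 ± 0.30, 1.26 ± 0.25 and 0.85 ± 0.26, all called. At day 10 the 3 samples (9.29, 9.43 and 9.76) lay just above the highest uninjured sample, with a difference of 0.56 ± 0.37 that was not called (adjusted p = 0.29). At days 31 and 35 the differences were 0.48 ± 0.32 and 0.25 ± 0.32, neither called. Between SBI days 3 and 7 Stat6 differed by -0.54 ± 0.25 (adjusted p = 0.074), and passed without SBI day 3 replicate 8 or SBI day 7 replicate 1 or 2 (-0.66 to -0.64, adjusted p of 0.027 to 0.044).

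**Figure D1:**
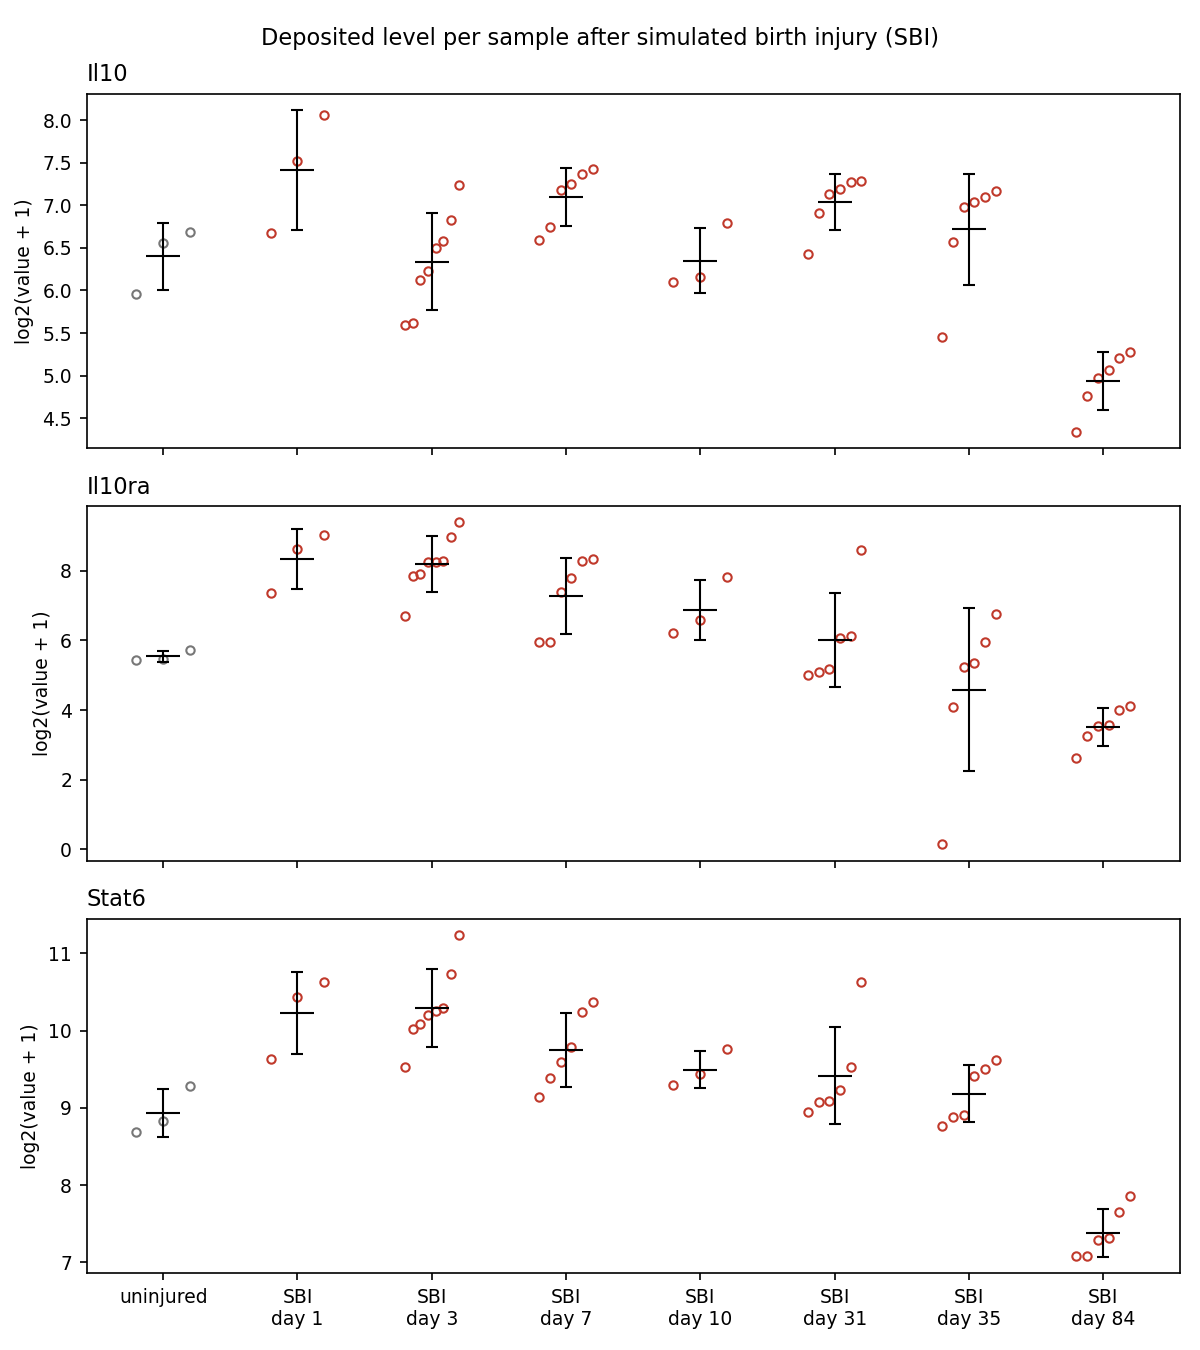
Level of each gene, as log2(value + 1), in every sample of uninjured muscle and of the 7 SBI days, 1 panel per gene. Circles are samples, the horizontal bar is the group mean and the whiskers are 1 SD. Il10ra and Stat6 are highest at days 1 and 3, Il10 is lower at day 3 than at days 1 and 7, and all 3 are lowest at day 84, where the whole panel is low.

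At SBI day 84 all 3 genes were far below uninjured muscle on the deposited scale, and not after centring. Total counts there were 702001 to 872262 per sample, against 1146431 to 1703117 in uninjured muscle. Il10ra rested on 5 to 18 recovered counts per sample at day 84, against 21 to 39 in uninjured muscle. The part of depth and low counts was not tested. Il10 ran from 4.34 to 5.28 (median 5.02, n = 6), Il10ra from 2.61 to 4.10 (median 3.56) and Stat6 from 7.08 to 7.86 (median 7.30), and none overlapped uninjured muscle. The differences were -1.46 ± 0.39 for Il10 (adjusted p = 0.00055), -2.02 ± 0.78 for Il10ra (adjusted p = 0.015) and -1.55 ± 0.32 for Stat6 (adjusted p = 1.1e-05). On that scale 80.6% of the panel was called lower, so the 3 genes moved with the panel median. After centring the differences were 0.31 ± 0.37 for Il10, -0.25 ± 0.74 for Il10ra and 0.22 ± 0.26 for Stat6. None was called, and for Il10 and Stat6 the sign turned. The step from SBI day 35 showed the same: Il10 and Stat6 differed by -1.78 ± 0.32 and -1.80 ± 0.26 on the deposited scale, where 88.8% of the panel was called lower, and by -0.05 ± 0.30 and -0.07 ± 0.22 after centring. Il10ra differed by -1.07 ± 0.64 in this step as deposited (adjusted p = 0.11), and by -1.96 (adjusted p = 0.0022) without SBI day 35 replicate 4, the sample with no count. After centring the sign of Il10ra turned, to 0.66 ± 0.61, and it was not called. Over the 8 groups of the time course the moderated F test called all 3 genes on both scales (adjusted p after centring 0.0012 for Il10, 1.3e-08 for Il10ra and 8.7e-09 for Stat6), as it did 99.3% of the panel as deposited and 92.5% after centring.

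**Figure D2:**
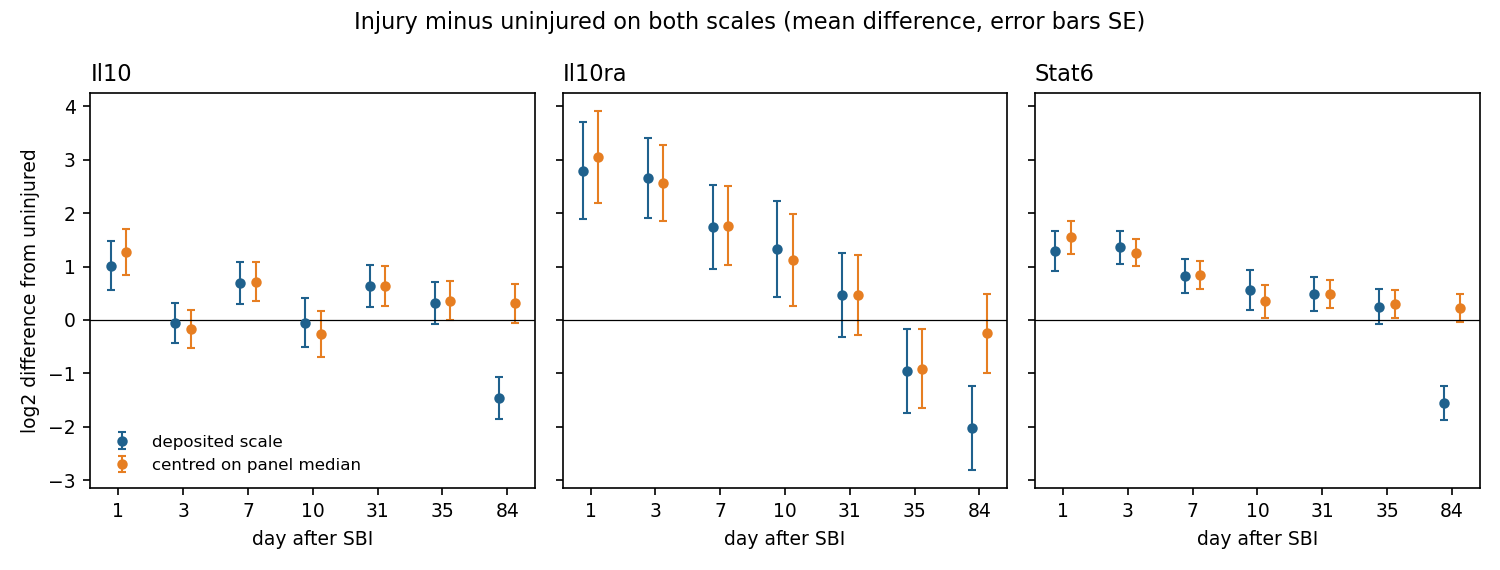
Log2 difference of each SBI day from uninjured muscle for the 3 genes, on the deposited scale (blue) and after centring each sample on the panel median (orange). Points are differences of means and bars are standard errors. The 2 scales lie close together to day 35 and part at day 84, where the deposited differences are -1.46, -2.02 and -1.55.

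The early injury days were also those of the inflammatory genes on the panel. Of 9 cytokine and chemokine genes that interleukin-10 is known to restrain in macrophages, 7 were called higher at day 1. At day 3 it was 6 and at day 7 it was 3, and none was called lower. Of the whole panel, 21.6%, 38.8% and 30.6% were called higher on these days, so the day 7 count was near the panel's share. The 9 genes had a median difference of 4.03 at day 1, 3.26 at day 3 and 1.69 at day 7, against panel medians of -0.66, 0.02 and 0.25. Among them the inflammatory cytokine Il1b was higher by 6.32 ± 1.65 at day 1 (adjusted p = 0.00058), 5.10 ± 1.36 at day 3 (adjusted p = 0.00057) and 4.89 ± 1.43 at day 7 (adjusted p = 0.0034).

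The list of type 2 and alternative macrophage genes had 5 on the panel, Il33, Gata3, Arg1, Tgfb1 and Foxp3. Of these, 2 were called higher and 2 lower at day 1, 3 higher and 1 lower at day 3, and 1 each way at day 7. Arg1, arginase 1, a marker of alternative macrophages in rodents, was higher at day 1 (3.02 ± 1.05, adjusted p = 0.0085) and day 3 (2.92 ± 0.87, adjusted p = 0.0018). The growth factor Tgfb1 was higher at day 3 (2.19 ± 0.39, adjusted p = 6.0e-07) and day 7 (1.66 ± 0.40, adjusted p = 0.00054). Foxp3 was lower at all 3 days, by -3.08 ± 0.65 at day 1, -3.43 ± 0.54 at day 3 and -1.34 ± 0.56 at day 7. This list, which includes the regulatory T cell gene Foxp3, thus held genes that moved in opposite directions. Of the 134 panel genes, 29, 52 and 41 were called higher at days 1, 3 and 7, and 58, 47 and 36 lower.

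Markers of macrophages and of muscle fibres moved over the same days. Both macrophage markers on the panel, Adgre1 and Ccr2, were called higher at days 3 and 7, and Ccr2 alone at day 1. Their summed deposited value ran from 1846 to 5568 at SBI day 1, from 1828 to 10745 at day 3 and from 1159 to 5698 at day 7, all above the 453 to 942 of uninjured muscle. Of 2 neutrophil markers Cxcr2 was called higher at days 1 and 3. Of 4 lymphocyte markers Foxp3 and Gata3, a regulator of type 2 helper T cells (-2.19 ± 0.83, adjusted p = 0.016), were called lower at day 1 and Foxp3 alone at days 3 and 7. The lymphocyte markers summed to 58 to 97 at SBI day 1 and 60 to 138 at day 3, below the 427 to 520 of uninjured muscle, and to 152 to 505 at day 7. The summed neutrophil markers had medians of 1228 (range 137 to 1716) and 95 (0 to 1398) at SBI days 1 and 3, against 43 (30 to 44) in uninjured muscle. Of 8 fibre markers, 5 were called lower at day 1, 7 at day 3 and 4 at day 7. Of all 134 panel genes, 58, 47 and 36 were called lower on these days, and 29, 52 and 41 higher. The fibre markers summed to 203446 to 524428 at day 1 and 70302 to 501973 at day 3, against 1195836 to 1333040 in uninjured muscle. At day 7 their sum ran from 97395 to 1424076 and overlapped that of uninjured muscle. Of 4 fibroblast markers 3 were called lower at day 1 and 3 higher at days 3 and 7, and of 2 endothelial markers 1 was lower at day 1 and 1 higher at days 3 and 7. The part of these cell types in the differences of Il10, Il10ra and Stat6 was not tested.

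Immediate injection of SKM left no called difference from saline in any of the 3 genes, nor in any gene of the panel. With SKM at day 3 Il10 ran from 6.26 to 7.73 (median 6.87, n = 9), against 5.26 to 9.04 (median 7.05, n = 9) with saline. The saline samples spread over the wider range on both sides. The difference was -0.31 ± 0.26 (adjusted p = 0.97, 95% interval -0.83 to 0.21). The authors' deposited table of SKM against saline gives -0.62, and the ratio of arithmetic group means gives -0.62 as well, so the size depends on how the wide saline group is averaged. Without immediate saline replicate 5, the highest, the day 3 difference was -0.08, and without replicate 7, the lowest, it was -0.55. Depth differed here too, with a median total of 1668608 counts with SKM and 748527 with saline, and its part was not tested.

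Il10ra at day 3 of immediate injection ran from 8.36 to 9.63 (median 8.68) with SKM and from 7.60 to 9.73 (median 9.08) with saline, a difference of -0.04 ± 0.52. Stat6 ran from 10.20 to 11.20 (median 10.87) with SKM and from 10.56 to 11.55 (median 10.98) with saline, a difference of -0.23 ± 0.22. At day 7 the differences were 0.01 ± 0.27 for Il10, -0.05 ± 0.54 for Il10ra and -0.05 ± 0.22 for Stat6. All these ranges overlapped. The 95% intervals at day 7 were -0.52 to 0.55 for Il10, -1.12 to 1.01 for Il10ra and -0.49 to 0.39 for Stat6, which for Il10ra leaves room for a difference of about 1 log2 unit either way. The panel held 0% called genes at day 3 and 0% at day 7, with 8 and 7 genes under an unadjusted p of 0.05 in limma. With voom on the recovered counts the 3 genes were not called either.

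After delayed injection Il10ra and Stat6 were higher with SKM than with saline, and Il10 was level. At day 3 Il10ra ran from 6.64 to 9.26 (median 7.73, n = 9) with SKM, against 5.64 to 6.89 (median 6.17, n = 9) with saline. The 7 highest SKM samples lay above the whole saline group and the other 2 within it. The difference was 1.51 ± 0.52 (95% interval 0.48 to 2.55) and missed the threshold as deposited (adjusted p = 0.058). After centring it was 1.51 ± 0.50 and passed (adjusted p = 0.032), among 11.2% of the panel called higher against 6.72% as deposited. With the replicate block the deposited difference also passed (adjusted p = 0.048). It passed as well with a pseudocount of 10 (adjusted p = 0.014), voom (0.026) and the compared groups only (0.0022, SE 0.31). Leaving out any of 6 samples (delayed SKM replicates 1, 2, 3 and 5, delayed saline replicates 5 and 6) brought it past the threshold, with differences of 1.56 to 1.65 and adjusted p of 0.036 to 0.049.

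At day 7 of delayed injection Il10ra ran from 5.03 to 8.51 (median 6.10, n = 9) with SKM, against 3.99 to 5.53 (median 4.84, n = 10) with saline. The SKM group held 2 samples well above the rest, at 7.47 and 8.51. The difference of 1.47 ± 0.51 was called (adjusted p = 0.036), where 14.9% of the panel was. After centring it was 1.22 ± 0.48 and was not called (adjusted p = 0.069). Leaving out delayed SKM replicate 8, the highest, gave 1.19 (adjusted p = 0.168), and without replicate 9 it was 1.32 (adjusted p = 0.112). The call was also lost without delayed SKM replicate 5 or delayed saline replicate 2, 3 or 4, at 1.38 to 1.45 and adjusted p of 0.052 to 0.072. The authors' deposited table of SKM against saline gives 1.73 at day 3 and 1.88 at day 7. Those values lie close to the log2 ratios of arithmetic group means (1.72 and 1.84). That is a different measure from the differences of mean log2 levels used here.

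Stat6 at day 3 of delayed injection ran from 9.03 to 10.54 (median 9.84, n = 9) with SKM, against 8.64 to 9.44 (median 9.13, n = 9) with saline. Of the SKM samples 6 exceeded the highest saline sample and 3 lay within the saline range. The difference of 0.71 ± 0.22 was called (adjusted p = 0.022) and remained so after centring (0.71 ± 0.18, adjusted p = 0.0021). Leaving out delayed SKM replicate 7, 8 or 9 or delayed saline replicate 1 or 2 ended the deposited call, with differences of 0.62 to 0.67 and adjusted p of 0.050 to 0.082. At day 7 Stat6 ran from 8.01 to 10.10 (median 8.84, n = 9) with SKM, against 7.74 to 9.28 (median 8.44, n = 10) with saline. That difference of 0.59 ± 0.21 was called as deposited (adjusted p = 0.044) and was 0.33 ± 0.17 after centring (adjusted p = 0.17). It was lost without any of 9 of the 19 samples (delayed SKM replicates 3, 5, 8 and 9, delayed saline replicates 3, 4, 5, 7 and 8), at 0.45 to 0.59 and adjusted p of 0.053 to 0.184. The authors' deposited table of SKM against saline gives 0.77 and 0.64 for days 3 and 7, again close to the log2 ratios of arithmetic group means (0.76 and 0.64).

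Il10 itself was close between the arms of delayed injection. At day 3 it ran from 5.73 to 8.26 (median 6.78) with SKM and from 6.47 to 7.15 (median 6.70) with saline, so that the SKM group was the wider on both sides. The difference was 0.16 ± 0.26 (95% interval -0.36 to 0.68). At day 7 it was 0.07 ± 0.26 (95% interval -0.44 to 0.58), with medians of 5.94 with SKM and 6.16 with saline. The mean difference and the difference of medians had opposite signs at day 7, and after centring the mean difference was -0.18 ± 0.24.

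**Figure D3:**
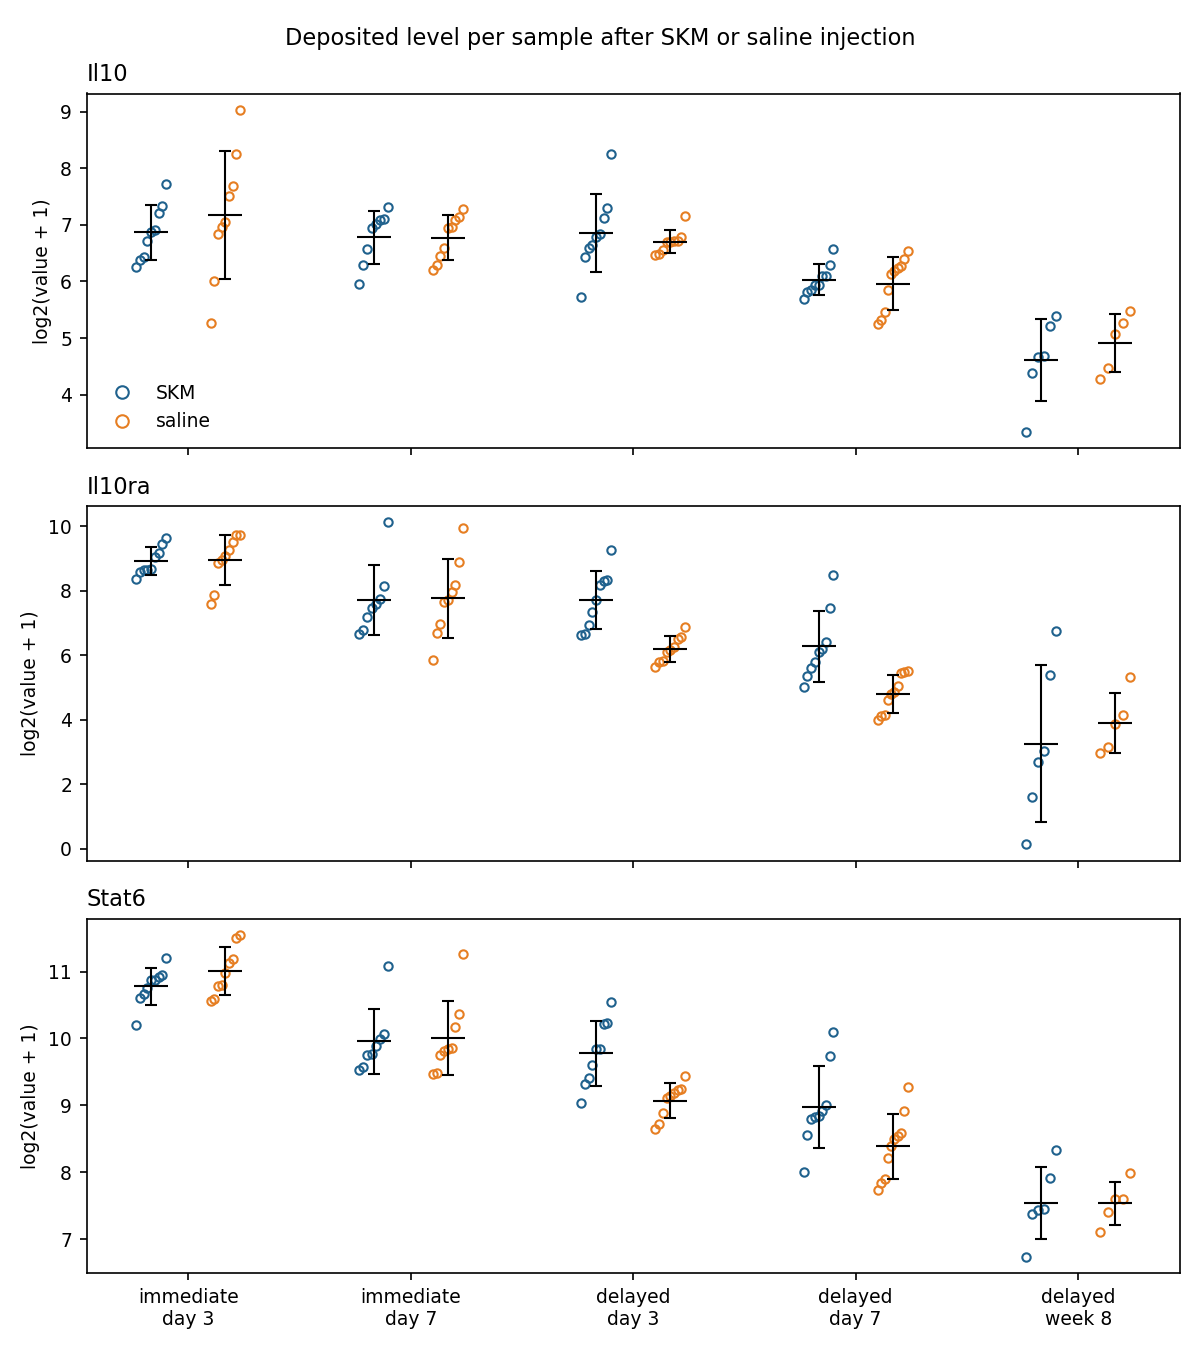
Level of each gene, as log2(value + 1), in every sample after immediate or delayed injection of SKM (blue) or saline (orange), at each sampled time. Circles are samples, horizontal bars are group means and whiskers are 1 SD. The SKM samples sit higher than saline for Il10ra and Stat6 at delayed days 3 and 7, and overlap them throughout, as they do at the other times.

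At week 8 after delayed injection none of the 3 genes differed between the arms by more than its spread, and 0% of the panel was called. Il10ra ran from 0.14, a count of 0, to 6.75 (median 2.87, n = 6) with SKM, against 2.96, 3.17, 3.88, 4.15 and 5.33 with saline. The difference was -0.63 ± 0.67 (95% interval -1.96 to 0.69), and between -1.33 and -0.01 with 1 sample left out. Il10 ran from 3.34 to 5.40 (median 4.67) with SKM, against 4.28, 4.46, 5.06, 5.27 and 5.48 with saline, a difference of -0.30 ± 0.34. Stat6 ran from 6.73 to 8.33 (median 7.44) with SKM, against 7.10, 7.41, 7.60, 7.60 and 7.98 with saline, a difference of 0.00 ± 0.28.

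Few other genes of the fixed lists were called between the delayed arms. At day 3 these were Tgfb1 (0.89 ± 0.27, adjusted p = 0.022), Il1b (2.88 ± 0.95, adjusted p = 0.045) and the macrophage marker Adgre1 (2.10 ± 0.54, adjusted p = 0.0087), all higher with SKM. At day 7 they were Tgfb1 (1.03 ± 0.26, adjusted p = 0.0088), Il1b (2.53 ± 0.93, adjusted p = 0.049), Tnf (2.00 ± 0.67, adjusted p = 0.036), Ccl2 (1.63 ± 0.53, adjusted p = 0.032), both macrophage markers and the endothelial gene Tie1. Thus 1 of 9 cytokine genes that interleukin-10 restrains was called at day 3 and 3 of 9 at day 7. Of the whole panel, 6.72% and 14.9% were called higher on these days. The 9 genes had medians of 1.40 and 1.63, against panel medians of 0.16 and 0.24. After centring, 1 was called at day 3 and 0 at day 7. Without delayed SKM replicate 8 no gene of the panel was called at day 7.

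The 2 macrophage markers summed to 1722 to 12380 with SKM at day 3 of delayed injection, against 696 to 2206 with saline, and at day 7 to 540 to 10200 with SKM, against 329 to 1124 with saline. The 8 fibre markers summed to 394899 to 903569 with SKM at day 3, against 943384 to 1246217 with saline, although none of the 8 was called. At day 7 the fibre sums overlapped, at 363288 to 842082 with SKM and 481529 to 1007367 with saline. No neutrophil or lymphocyte marker was called at either day. The part of these cell types in the Il10ra and Stat6 differences was not tested.

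A call after delayed and none after immediate injection does not show that the effects differ, so the difference itself was tested. At day 3 the SKM effect after immediate injection minus that after delayed injection was -1.56 ± 0.74 for Il10ra (adjusted p = 0.17), -0.94 ± 0.31 for Stat6 (adjusted p = 0.086) and -0.47 ± 0.37 for Il10 (adjusted p = 0.33). At day 7 it was -1.52 ± 0.74 for Il10ra (adjusted p = 0.16), -0.63 ± 0.31 for Stat6 (adjusted p = 0.16) and -0.06 ± 0.37 for Il10 (adjusted p = 0.90). None was called, where 0% of the panel was at day 3 and 1.49% at day 7. In the fit of the compared groups only, the day 3 differences of Il10ra (adjusted p = 0.014) and Stat6 (adjusted p = 0.012) passed. Stat6 also passed the threshold at day 3 without immediate saline replicate 3 (-0.99, adjusted p = 0.048), and at day 7 without immediate SKM replicate 7 (-0.79, adjusted p = 0.048). With voom its day 3 value was -0.94 (adjusted p = 0.034). The change of the SKM effect between days 3 and 7 was not called for any of the 3 genes or for the panel (0% after immediate and 0% after delayed injection).

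Saline injection was also set against injury alone. Immediate saline was compared with the same day of SBI, and delayed saline at day 3, day 7 and week 8 with SBI days 31, 35 and 84, a matching that rests on the spacing of the sampled days. Immediate saline at day 3 was higher than SBI day 3 in Il10 by 0.85 ± 0.27 (adjusted p = 0.0071) and in Stat6 by 0.72 ± 0.22 (adjusted p = 0.0057), with overlapping ranges, and 44.8% of the panel was called higher. In the fit of the compared groups only the Il10 call was lost (adjusted p = 0.12). The panel median itself was 0.63 higher in immediate saline, and after centring the differences were 0.22 and 0.09, not called. Delayed saline at day 7 was lower than SBI day 35 in Il10 (-0.76 ± 0.29, adjusted p = 0.021) and Stat6 (-0.79 ± 0.24, adjusted p = 0.0032), with 53.7% of the panel called lower. Here the panel median differed by -0.68, and the centred differences were -0.08 and -0.12, not called. The Il10 call was lost without SBI day 35 replicate 1 or 3 (-0.68 and -0.67, adjusted p = 0.056 and 0.057). Il10ra was not called in either comparison, and no member was called for immediate saline day 7 against SBI day 7 (2.99% of the panel), delayed saline day 3 against SBI day 31 (2.24%) or delayed saline week 8 against SBI day 84 (0%).

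Between day 3 and day 7 after injection Stat6 was lower in every arm as deposited, by -0.83 ± 0.22 with immediate SKM, -1.01 ± 0.22 with immediate saline, -0.80 ± 0.22 with delayed SKM and -0.68 ± 0.21 with delayed saline. Il10ra differed by -1.20 ± 0.54 with immediate SKM (adjusted p = 0.052), -1.20 ± 0.52 with immediate saline (adjusted p = 0.043), -1.44 ± 0.52 with delayed SKM (adjusted p = 0.022) and -1.39 ± 0.51 with delayed saline (adjusted p = 0.015). Il10 was called only in the delayed arms, at -0.82 ± 0.26 with SKM and -0.74 ± 0.26 with saline. The panel was called lower for 38.8%, 39.6%, 48.5% and 61.2% of its genes in the same order of arms. After centring, Stat6 with immediate saline was the one call left among the 3 genes (-0.54 ± 0.18, adjusted p = 0.0064, with 22.4% of the panel called lower). Leaving out any of 11 immediate saline samples (day 3 replicates 4 to 9, day 7 replicates 4, 5, 6, 8 and 9) ended the Il10ra call there, at -1.19 to -0.96 and adjusted p of 0.051 to 0.124. For immediate SKM, Il10ra passed without day 3 replicate 4 or day 7 replicate 7 or 8 (-1.27, -1.55 and -1.27). It also passed with a pseudocount of 10 (adjusted p = 0.016), voom (0.0039), the compared groups only (0.017) and without the day 84 and week 8 groups (0.035). Il10 with immediate saline, -0.41 ± 0.26 and not called, passed without day 3 replicate 7 (-0.65, adjusted p = 0.025).

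In the order of the 18 group levels, neighbours could mostly not be separated beyond their spread. After centring, SBI day 1 held the highest mean of each gene, at -2.56 ± 0.48 (SD) for Il10, -1.64 ± 0.64 for Il10ra and 0.25 ± 0.30 for Stat6. The lowest means were -4.09 ± 0.23 for Il10 at SBI day 10, -5.60 ± 2.37 for Il10ra at SBI day 35, where 1 sample had no count, and -1.30 ± 0.13 for Stat6 in uninjured muscle. Of the 17 neighbours in each order, all overlapped in range, and the gap exceeded the larger SD once for Il10 (SBI day 1 above SBI day 7, by 0.55) and in no pair for Il10ra or Stat6. On the deposited scale immediate saline day 3 was highest for Il10ra (8.96 ± 0.77) and Stat6 (11.01 ± 0.36), SBI day 1 for Il10 (7.42 ± 0.70), and the groups at day 84 and week 8 were lowest for all 3. There the gap to the next group exceeded the larger SD in 1 pair for Il10, 1 for Il10ra and 2 for Stat6, again with overlapping ranges.

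Il10ra and Stat6 had similar patterns across groups, and Il10 did not share them. Over the 18 centred group means Pearson's r was 0.91 between Il10ra and Stat6, 0.12 between Il10 and Il10ra and 0.22 between Il10 and Stat6. On the deposited scale, where groups also share their panel median, the same values were 0.96, 0.81 and 0.88. Over the deviations of 124 samples from their group means, centred, they were 0.69, 0.34 and 0.11. All probes of a sample share 1 hybridisation and 1 normalization, and these correlations are descriptions.

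**Figure D4:**
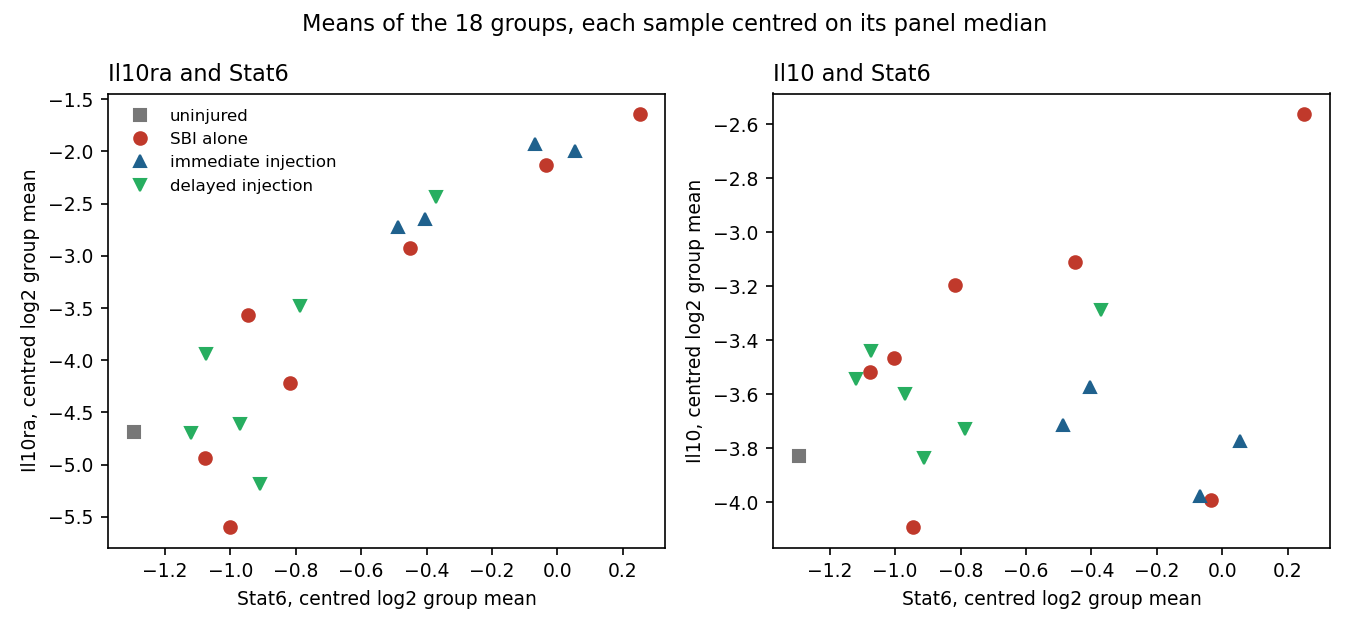
Centred log2 means of the 18 groups for Il10ra (left) and Il10 (right) against Stat6, with uninjured muscle, SBI alone, immediate and delayed injection as separate symbols. Il10ra lines up with Stat6 (r = 0.91), and Il10 does not (r = 0.22), with SBI day 1 at the top right of both panels.

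The panel genes most like each member were taken from the same 18 centred means. For Stat6 they were Myd88 (r = 0.99), an adaptor of Toll-like receptors, the AP-1 subunit Junb (0.98) and the transcription factor Irf5 (0.98), and the least alike was Rps6kb1 (-0.94), the S6 kinase of the mTOR pathway. For Il10ra they were Il1b (0.95), Irf5 (0.95) and the monocyte chemokine receptor Ccr2 (0.95), and the least alike was Mtor (-0.96). For Il10 the highest were only 0.45 (Nfkbia, an inhibitor of NF-kappa-B), 0.40 (the translation repressor Eif4ebp1) and 0.40 (Tnf), and the lowest was -0.60 (Tgfbr1). Over the deviations of 124 samples, the highest were Myd88 (0.88) for Stat6, Irf5 (0.77) for Il10ra and Tbx21 (0.39), the transcription factor of type 1 helper T cells, for Il10. The Tgfbr1 name is the less certain one, since its probe was not the closest match to the authors' values.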

How the data were processed

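RNA of pubocaudalis muscle was counted on an nCounter panel from 50 to 100 ng of total RNA, per the labels' protocols. The authors deposited 1 matrix of normalized signal values for 127 samples and 134 probes, and a workbook of their own fold changes in 5 sheets. The normalization itself is not given in the sources used here. Every value above the floor of 0.1 was a whole multiple of 1 step per sample (16829 of 16829 values, within 0.05 of a whole number), which gave back the counts and the totals behind each sample. The steps ran from 0.563 to 4.28. The precision of low counts is that of counting alone and takes no account of sampling between animals.

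The matrix has no gene names. Probes were named in the alphabetical order of the workbook's 136 names without Ppard and Pparg, and checked against the fold changes in the authors' deposited table. The ranking of matches left out SBI days 3 and 7. In it 132 of 134 probes were the closest match to their own name, including Il10, Il10ra and Stat6. The median difference, with those days included, was 0.0070 log2. At SBI day 3 the authors' values were off from the log2 ratios of group means by 0.25 for Il10, 0.24 for Il10ra and 0.20 for Stat6. At SBI day 7 they were off by 0.06, 0.14 and 0.10 in the same order. The reason was not tested. All columns were mapped to a sample.

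Levels were log2(value + 1). One limma model (lmFit and eBayes, version 3.58.1, R 4.3.3) was fitted over 124 samples in 18 groups, after averaging 3 pairs of samples with identical counts, with Benjamini-Hochberg adjustment over 134 genes in each of 31 comparisons and a threshold of 0.05. The model was also run on simulated data in which each gene had the same SD in all groups. That run cannot speak to spreads that differ between groups. Intervals are 95%. Named genes were the 3 members, the 3 most and the 1 least correlated panel genes of each, and, where a member was called, at most the 3 called genes of largest change in each list (type 2 and alternative macrophage genes, cytokines that interleukin-10 restrains, and markers of 6 cell types). A further list is not reported here. The members and lists were chosen with earlier results of these data known. Alternatives were median centring, a pseudocount of 10, every deposited sample, voom weights, a filter at a mean of 20 counts, a replicate block, fits of the compared groups alone and leaving out each sample. Sequences and loci are RefSeq's, build GRCr8, read with Python 3.11.15 and pandas 2.3.3. A protein or promoter sequence of Il10 was not used here.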

Additional observations from a re-analysis of the deposited data

Results flagged for a closer look

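Of 45 sets of 4 to 10 samples (a gene in a group), 7 held 1 sample that stood apart from the rest of its group by Dixon's test at 95%. Chance alone gives about 1 such set in 20. In SBI day 31, replicate 1 had Il10ra at 8.594, against a median of 5.18 in the other 5 samples, and Stat6 at 10.63, against 9.08. Its summed macrophage markers were 9383, against 529 to 1360 in the others, and its fibre markers 550842, against 821454 to 1192273. Its total was 1173234 counts, against 1504445 to 1791711 in the others.

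In immediate SKM day 7, replicate 7 had Il10ra at 10.13, against a median of 7.46 in the other samples, and Stat6 at 11.08, against 9.77. Its macrophage markers summed to 17568, against 1706 to 7245 in the others, its fibre markers to 79095, against 362306 to 1193626, and its total was 580205 counts, against at least 902951. In immediate saline day 7, replicate 7 had Stat6 at 11.26, against a median of 9.83, with macrophage markers of 14512, against 924 to 8522 in the others, and fibre markers of 92700, against 295555 to 1146937. Its total was 769589 counts, against 973339 to 1597770 in the others. Il10 was not flagged by Dixon's test in any of these 3 samples.

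Il10 stood apart in 2 other samples. SBI day 35 replicate 4 had a level of 5.459, against a median of 7.04 in the others, from 12 counts and a total of 647221, against at least 1131602 in the others. It is also the sample with no Il10ra count. Delayed saline day 3 replicate 5 had Il10 at 7.154, against a median of 6.70, with macrophage markers of 2129, inside the 696 to 2206 of the others. The part of these markers and totals in the values that stood apart was not tested.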

How the results depend on the processing

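For the 3 genes in the injury and SKM comparisons, 260 of 282 values under other settings kept their side of the threshold, and 22 did not. In the other comparisons it was 425 of 450. With 1 sample left out it was 385 of 426 and 1038 of 1071. A change of sign between uncalled values was not counted, as for Il10 at delayed day 7 (0.07 as deposited, -0.18 after centring). Where a value changed, the cause was not tested.

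Centring turned the sign of SBI day 84 against uninjured muscle for Il10 (0.3101) and Stat6 (0.2194) and ended the call of Il10ra (-0.2512). It ended the day 7 calls of delayed SKM against saline for Il10ra (1.216) and Stat6 (0.3325) and brought Il10ra at day 3 past the threshold (1.510). Il10ra at delayed day 3 also passed with a pseudocount of 10 (1.413), with voom (1.445), and, at 1.515, in the fit of the compared groups only and in a fit without SBI day 84 and the week 8 groups, which was chosen after seeing the data. Counting every deposited sample ended the day 7 injury calls of Il10ra (1.584) and Stat6 (0.6972). Voom ended those of Il10ra at day 7 (1.854) and day 84 (-2.094) of injury and at delayed day 7 (1.594), and of Stat6 at delayed day 7 (0.6182). The fit of the compared groups only, with fewer samples, ended the calls of Il10 at day 1 (1.019), Il10ra at day 7 (1.738) and Stat6 at day 7 (0.8194) of injury, and of Stat6 at delayed day 7 (0.587).

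Over all fits with 1 sample left out, the differences whose call changed in at least 1 of them ran from 0.6958 to 1.394 for Il10 at day 1, 1.527 to 2.005 for Il10ra at day 7 and 0.6969 to 0.9941 for Stat6 at day 7 of injury. For delayed SKM they ran from 1.321 to 1.649 (Il10ra, day 3), 0.6155 to 0.804 (Stat6, day 3), 1.192 to 1.627 (Il10ra, day 7) and 0.4468 to 0.7079 (Stat6, day 7).

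The replicate numbers did not pair the samples: same-numbered SKM and saline samples correlated between -0.82 and 0.96, with means of -0.17 to 0.13 in the 5 comparisons. With the replicate number as a block, Il10ra was 1.702 at day 7 of injury and lost its call, and 1.515 at delayed day 3 and gained one, and the genes called at delayed day 7 were 35, against 20 without the block.

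Counts of called panel genes that moved by over 1.5 times were, centred against deposited, 5 against 12 at SBI day 10, 2 against 108 at SBI day 84, 15 against 9 at delayed day 3, 10 against 20 at delayed day 7, 1 against 60 for immediate saline day 3 and 2 against 73 for delayed saline day 7 against SBI alone, 6 against 119 for SBI day 84 against day 35, and 1 against 65 and 1 against 82 for day 7 against day 3 with delayed SKM and delayed saline. In the fit of the compared groups only, counts were 2 against 77 at SBI day 7, 4 against 12 at SBI day 10, 48 against 9 at delayed day 3, 12 against 20 at delayed day 7, 4 against 47 for SBI day 7 against day 3 and 12 against 0 for the day 3 difference of SKM effects. Voom gave 13 at delayed day 7, 6 for that day 3 difference, 2 against 0 at SBI day 31 and 1 against 0 for the change of the immediate SKM effect between days. Small counts also moved for immediate saline day 7 against SBI (4, with 0 centred, 0 in the compared groups and 16 with every sample), SBI day 10 against day 7 (7, with 0 centred and 0 in the compared groups), SBI day 31 against day 10 (8, with 4 in the compared groups), delayed saline day 3 (3) and week 8 (0) against SBI (0 and 1 in the compared groups), and the day 7 difference of SKM effects (2, with 0 to 4 elsewhere). Without delayed SKM day 7 replicate 8 the day 7 count was 0.

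A count test on the recovered counts was listed and not run, because the deposited values are a normalized signal. The filter left 130 genes and changed no call of the 3 genes. Il10 lay under 20 counts in 7 samples and Il10ra in 19, where counting error limits the levels, and the groups of 3 samples limit days 1 and 10 and uninjured muscle.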
